A study of Homo sapiens with 39 samples.

Results

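RNA that came down with a control immunoglobulin (IgG) was compared with the cytosolic RNA of the same lines (Cytosol), to describe the background of an RNA immunoprecipitation of U2AF1. U2AF1 is the small subunit of the factor that recognises the 3′ splice site. The comparison takes 6 of the 39 samples of the series, 1 IgG and 1 Cytosol library from each of 3 lines of HBEC, which are human bronchial epithelial cells. The lines carry U2AF1 S34F (S34F), an allele labelled Frame Shift (FS) and wild-type U2AF1 (WT). All were grown in keratinocyte serum-free medium with pituitary extract and EGF, per the labels' protocols. The labels give neither the frame-shift allele nor the source of the IgG, and they do not say whether a line is a clone. Genes were kept where the 6 libraries together held at least 50 counts, which left 12948 of 26334 gene symbols. With 1 library of each kind per line, the 3 lines are the replicates (n = 3 pairs), and differences between lines have no replicate check. In bulk RNA, fewer cells holding an mRNA and less of it per cell cannot be told apart.

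A control precipitate holds RNA that sticks to beads, antibody or the complexes these pull along, and it sets the level above which a specific precipitate is read. mRNAs of secreted, membrane and lysosomal proteins are translated at the endoplasmic reticulum (ER), to which a signal peptide or membrane segment of the growing protein directs the ribosome. mRNAs of cytosolic enzymes are mostly translated on free ribosomes. Some long noncoding RNAs, such as NEAT1 and MALAT1, stay in the nucleus, as do the small RNAs of Cajal bodies and nucleoli.

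The IgG libraries held 4589509, 2963314 and 3549375 counts in the S34F, FS and WT lines, and the Cytosol libraries 14016667, 29774499 and 8838312 counts. A count of 0 allows up to 3 counts, or 0.654 to 1.01 CPM (a count as a share of the library total, times 1000000) in IgG and 0.101 to 0.339 CPM in Cytosol, for counting error only. The library total that the deposited RPKM values imply was larger than the summed gene counts. Gene counts made up 25.7%, 18.9% and 17.6% of that total in IgG of the S34F, FS and WT lines, against 29.97%, 31.3% and 31.8% in Cytosol. Each IgG library thus had a lower share in genes than every Cytosol library. Log CPM values correlated at r = 0.863, 0.802 and 0.771 between IgG and Cytosol of the S34F, FS and WT lines, across genes, which are not independent replicates. The S34F IgG library lay closest to its Cytosol library. All 30 basal airway epithelial markers reached the count minimum. Of 21 markers of differentiated airway cells, 7 did.

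In IgG against Cytosol, 86 genes were higher and 2 were lower (edgeR's quasi-likelihood test with line as a block, Benjamini-Hochberg adjusted p under 0.05), which is 0.664% and 0.0154% of the genes tested. Without line as a block, 60 were higher and 0 lower. At an unadjusted p under 0.05, 565 genes were higher and 393 lower. Leaving out the S34F line gave 169 higher genes, leaving out the FS line 89 and leaving out the WT line 86. All 88 called genes went the same way in the 3 lines after TMM scaling, and before it 84 of the 86 were higher in IgG in every line, all but AGRN and ITGB4. The median log2 ratio over all tested genes was -0.12. The 86 genes fell into 31 that share nearly 1 profile over the libraries, described further on, and 55 others. Of these 55, 22 (40%) belonged to lists of secreted, adhesion, transporter or lysosomal proteins. The remaining 33 included nuclear RNAs, small RNAs and long cytoskeletal mRNAs. The common dispersion over the 9 libraries was 0.553. This is a biological coefficient of variation of 74.4%, left after kind of library and line were fitted.

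mRNAs of proteins made at the ER stood higher in IgG. Over 4 lists (secreted and matrix, adhesion and receptors, transporters, lysosomal), 22 of 196 tested members were higher (11.2%, against 0.664% of all tested genes). By edgeR 0 were lower (1 at an unadjusted p under 0.05, 0 by DESeq2). The median log2 ratio was 0.81, against -0.12 over all tested genes. The fitted ratio was above 0 for 173 of the 196 (88.3%), against 43.9% of all tested genes. All 3 IgG libraries exceeded all 3 Cytosol libraries in CPM for 47 members (23.98%), against 4.62% of all tested genes. The reverse held for 6 members (3.06%), against 13.4%. With TMM-scaled CPM these shares were 29.1% against 6.28% for higher and 2.04% against 9.95% for lower. The members took 5.21%, 9.35% and 11.7% of the counts in IgG of the S34F, FS and WT lines, and 4.56%, 5.11% and 4.84% in Cytosol. The 95% Wilson bounds lay at most 0.0334 percentage points from these shares. They cover counting error within a library only, not the spread between lines. The Cytosol shares were close to each other, whereas the IgG shares differed between lines. The U2AF1 precipitate did not show this excess. Its median log2 ratio over Cytosol, averaged over the lines, was -0.22 for the members and -0.13 over all tested genes.

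**Figure D1:**
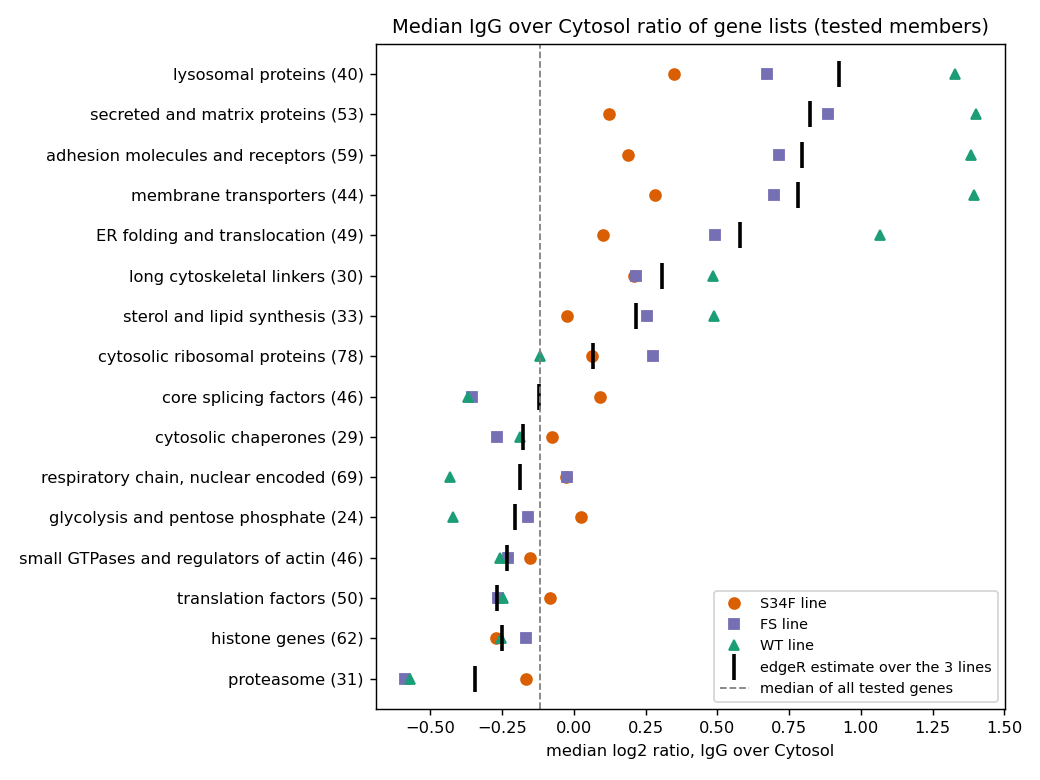
Median log2 ratio of IgG over Cytosol for the tested members of 16 gene lists (number in parentheses), in the S34F line (circles), the FS line (squares) and the WT line (triangles), with the median edgeR estimate (black bars) and that of all tested genes (dashed line, -0.12). Medians of the lists of secreted, adhesion, transporter and lysosomal proteins lie at 0.78 to 0.93, with the WT line farthest right. Those of cytosolic enzymes lie below 0 and below the dashed line.

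Among secreted and matrix proteins, 6 of 53 were higher and the list median was 0.82. FN1, the mRNA of fibronectin, which links cells to the matrix, had 7178, 14897 and 16465 CPM in IgG of the S34F, FS and WT lines, against 5095, 6649 and 4135 CPM in Cytosol. Every IgG library exceeded every Cytosol library, and the S34F line had the smallest difference. The log2 difference was 1.42 ± 0.21 (SE, edgeR adjusted p = 0.000295). LAMB3, the β chain of laminin-332 in the basement membrane, had 2337, 7473 and 11350 CPM in IgG and 2106, 3864 and 4410.1 CPM in Cytosol. Its IgG level exceeded that of Cytosol in each line, but the S34F IgG library lay below the FS and WT Cytosol libraries. The log2 difference was 1.03 ± 0.20 (edgeR adjusted p = 0.0102). LAMA5, a laminin α chain, differed by 1.11 ± 0.22 (edgeR adjusted p = 0.0122). The proteoglycan AGRN (1.08) and the matrix protein TGFBI (0.89) were also higher. AGRN was at 921 CPM in IgG and 955 CPM in Cytosol of the S34F line, so its higher direction there appeared only after TMM scaling, at 0.07 log2.

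Adhesion molecules and receptors gave 8 calls among 59 members, with a median of 0.80. ITGA3, an integrin α chain that binds laminin, had 2355, 3848 and 4842 CPM in IgG of the S34F, FS and WT lines and 1913, 1786 and 2161 CPM in Cytosol. All IgG libraries exceeded all Cytosol libraries, and the log2 difference was 1.04 ± 0.18 (edgeR adjusted p = 0.00333). ITGB4, the integrin β chain of hemidesmosomes, had 4014, 6546 and 7820 CPM in IgG, against 4096, 2258 and 3042 CPM in Cytosol. In the S34F line its libraries were near each other (0.09 log2 after scaling), whereas the FS and WT lines gave 1.69 and 1.54, for a fitted 1.16 ± 0.22 (edgeR adjusted p = 0.0060). The others were the protocadherin FAT2 (1.401), the semaphorin receptor PLXNB2 (1.32), the receptor NOTCH2 (1.61), the hemidesmosomal collagen COL17A1 (0.88), the cadherin CDH3 (1.15) and the phosphatase PTPRF (0.86).

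Transporters gave 4 calls among 44 members, with a median of 0.78. SLC3A2, the heavy chain of several amino acid exchangers, had 1126, 2089 and 2073 CPM in IgG of the S34F, FS and WT lines and 850.0, 792 and 820 CPM in Cytosol. The groups did not overlap, and the log2 difference was 1.23 ± 0.20 (edgeR adjusted p = 0.00124). Its light-chain partner SLC7A5 had 5794, 7851 and 8051 CPM in IgG, against 5173, 4279.5 and 4932 CPM in Cytosol, a log2 difference of 0.75 ± 0.15 (edgeR adjusted p = 0.0090). The glucose transporter SLC2A1 (1.48) and the lactate transporter SLC16A3 (1.28) were the others. Lysosomal proteins also gave 4 calls, among 40 members, with the highest median of the 4 lists, 0.93. PSAP, the precursor of the saposins that assist lipid breakdown, had 504, 1016 and 983 CPM in IgG and 358, 388 and 367 CPM in Cytosol. Its IgG levels differed between lines more than its Cytosol levels did, and the log2 difference was 1.29 ± 0.23 (edgeR adjusted p = 0.00374). Progranulin (GRN, 1.31), the cholesterol exporter NPC1 (1.38) and acid α-glucosidase (GAA, 1.31) were higher too.

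**Figure D2:**
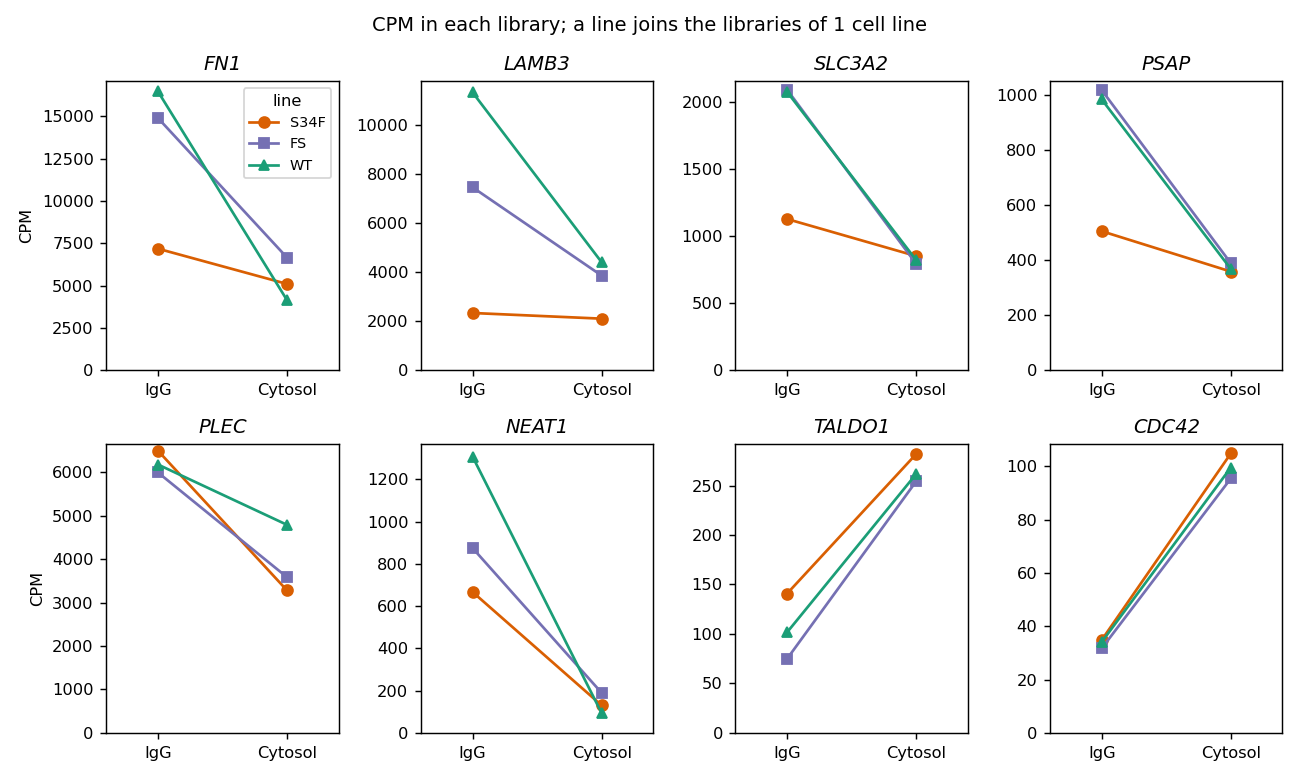
CPM of 8 genes in the IgG library (left) and the Cytosol library (right) of the S34F, FS and WT lines, each line joined, on linear axes from 0. FN1, LAMB3, SLC3A2 and PSAP slope down to Cytosol most in the FS and WT lines, PLEC and NEAT1 slope down in every line, and TALDO1 and CDC42 slope up in every line.

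Other proteins of the secretory pathway moved less. ER folding and translocation gave 1 call among 49 members, HSPA5, the main ER chaperone, at 0.93 ± 0.21 (edgeR adjusted p = 0.0415), with a list median of 0.58. HSPA5 lost its call without the FS or the WT line. Sterol and lipid synthesis gave 1 call among 33 members, with a list median of 0.22. The calls are 2.04% and 3.03% of the 2 lists, against 0.664% of all tested genes. Among called genes outside these lists were GANAB (1.35), a subunit of ER glucosidase, the membrane protease MMP14 (1.24), the histocompatibility antigen HLA-C (1.18), whose reads can be shared with other class I genes, and ESYT1 (1.43), a tether between ER and plasma membrane. These 4 were picked after their values were seen.

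The ER-translated mRNAs differed least between IgG and Cytosol in the S34F line. The median log2 ratio over the 196 members was 0.21 in the S34F line, 0.74 in the FS line and 1.38 in the WT line. Over all tested genes these medians were -0.03, -0.13 and -0.13. The S34F line gave the lowest of the 3 ratios for 129 of the 196 (65.8%), against 30.5% of the tested genes, and the WT line the highest for 133 (67.9%), against 37.7%. The order of lines matches that of the share of the library total that fell in genes (25.7%, 18.9% and 17.6%), and the part of that share in the result was not tested. Leaving out the WT line kept 7 of the 22 calls, leaving out the FS line 13 and leaving out the S34F line 22. FN1, ITGA3, ITGB4, SLC3A2 and PSAP were called in all of these fits. Without line as a block, 6 of the 22 were called.

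Cytosolic proteins lay somewhat below the median of all tested genes. Their distance from it was smaller than that of the ER-translated lists. The 4 lists were glycolysis and pentose phosphate, proteasome, chaperones, and small GTPases and actin regulators. By edgeR 0 of 130 tested members were higher and 2 were lower, against 0.664% and 0.0154% of all tested genes. The median was -0.23, against -0.12 over all tested genes. At an unadjusted p under 0.05, 1 was higher and 15 were lower, against 4.36% and 3.04% of all tested genes, and DESeq2 called 0 and 3, against 1.73% and 0.263%. The fitted ratio was above 0 for 26 of the 130 (20%), against 43.9% of all tested genes. All 3 IgG libraries lay below all 3 Cytosol libraries for 40 members (30.8%) and above them for 0, against 13.4% and 4.62% of all tested genes. With TMM-scaled CPM the lower share was 17.7%, against 9.95%. The members held 4.81%, 4.40% and 4.07% of the counts in IgG of the S34F, FS and WT lines, and 5.31%, 5.77% and 5.78% in Cytosol. The 95% Wilson bounds, for counting error only, lay at most 0.0234 percentage points away.

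Both genes called lower were in these lists. CDC42, a small GTPase that controls actin and cell polarity, had 34.9, 31.7 and 34.1 CPM in IgG of the S34F, FS and WT lines, against 105, 95.5 and 99.6 CPM in Cytosol. The levels within each kind of library were close and the groups were far apart, at a log2 difference of -1.42 ± 0.33 (edgeR adjusted p = 0.0458). TALDO1, transaldolase of the pentose phosphate pathway, had 141, 74.9 and 102 CPM in IgG and 282, 254 and 262 CPM in Cytosol. Here too the groups did not overlap, and the log2 difference was -1.22 ± 0.26 (edgeR adjusted p = 0.0200). Their direction held in every alternative fit, but each call was lost in some: the adjusted p of CDC42 lay between 0.00133 and 0.263 and that of TALDO1 between 0.000322 and 0.274. CDC42 lost its call without any 1 of the lines, and TALDO1 without the FS line or the S34F line.

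mRNAs of ribosomal proteins and of translation factors gave 0 calls and differed in their medians. Among 78 cytosolic ribosomal proteins edgeR called 0, with a median of 0.07 and 52 ratios above 0 (at an unadjusted p under 0.05, 5 higher and 1 lower, and 1 higher by DESeq2). Among 50 translation factors it called 0, with a median of -0.27 and 9 ratios above 0 (18%), against 43.9% of all tested genes (unadjusted 1 higher and 3 lower, 0 by DESeq2). Over all tested genes 4.36% were higher and 3.04% lower at an unadjusted p under 0.05. EEF2, the elongation factor of translocation, had 17466, 10463 and 11022 CPM in IgG of the S34F, FS and WT lines, against 18845, 13027 and 14786 CPM in Cytosol, and did not pass the test (-0.13 ± 0.09, edgeR adjusted p = 0.791). GAPDH, a glycolytic enzyme, was at -0.21 ± 0.11 and ACTB, β-actin, at -0.27 ± 0.12 without passing it. Nuclear-encoded respiratory chain subunits (69 tested, median -0.19), histone genes (62 tested, median -0.25) and core splicing factors (46 tested, median -0.12) had 0 calls each by edgeR and by DESeq2. At an unadjusted p under 0.05, 3, 5 and 3 of them were lower, against 3.04% of all tested genes. Their ratios were above 0 for 19, 6 and 12 members (27.5%, 9.68% and 26.1%, against 43.9% of all tested genes). U2AF1 itself had 4.30, 10.4 and 50.4 CPM in IgG, against 21.4, 54.7 and 53.9 CPM in Cytosol, and did not pass the test (edgeR adjusted p = 0.609).

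Nuclear noncoding RNAs gave 2 calls among 18 tested members (11.1%, against 0.664% of all tested genes), with a list median of 0.22. NEAT1, the RNA that nucleates paraspeckles, had 667, 875 and 1308 CPM in IgG of the S34F, FS and WT lines, against 130, 189 and 93.5 CPM in Cytosol. The groups were well apart in all lines, at a log2 difference of 2.95 ± 0.26 (edgeR adjusted p = 1.72e-07). MALAT1, a nuclear speckle RNA, had 827, 634 and 849 CPM in IgG and 365, 310 and 233 CPM in Cytosol, a log2 difference of 1.52 ± 0.20 (edgeR adjusted p = 0.000110). Both were also above Cytosol in the U2AF1 precipitate of the S34F, FS and WT lines. NEAT1 had 530, 698 and 574 CPM there, and MALAT1 707, 803 and 644 CPM. The list median of the U2AF1 precipitate over Cytosol was 0.65 log2, against -0.13 over all tested genes. TERC, the RNA of telomerase, had 85.6, 83.0 and 116 CPM in IgG against 22.4, 43.2 and 25.7 CPM in Cytosol and did not pass the test (1.77 ± 0.46, edgeR adjusted p = 0.112). RPPH1, the RNA of RNase P, took 24786, 43315 and 16457 CPM in IgG and 31283, 43622 and 23192 CPM in Cytosol and did not pass the test (-0.12 ± 0.11).

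Small nucleolar and Cajal body RNAs, which guide the modification of ribosomal and spliceosomal RNAs, gave 5 calls among 37 tested of 395 listed symbols, with a fitted median of 1.94. The medians of the ratios per line were lower, at 0.36, 1.31 and 1.11 in the S34F, FS and WT lines. The 5 calls are 13.5% of the tested members, against 0.664% of all tested genes. Most members had few counts, and many lie inside introns of host genes, whose reads cannot be told apart from theirs. SCARNA2 had 368, 617 and 427 CPM in IgG of the S34F, FS and WT lines, against 89.6, 120 and 132 CPM in Cytosol (2.19 ± 0.27, edgeR adjusted p = 3.64e-05). SNORA73B (2.44), SCARNA12 (2.55), SCARNA10 (2.15) and SCARNA5 (3.06) were also higher. These 5 had their largest ratio in the FS line, at 2.51, 3.45, 3.36, 3.18 and 3.96 log2. Of the 22 called secretory genes, 6 had theirs in the FS line and 16 in the WT line, and the difference was not tested. SCARNA10 lost its call without the FS line. In a separate list of small nucleolar RNA host genes 0 of 19 were called by edgeR or DESeq2, with a median of 0.17. At an unadjusted p under 0.05, 2 of the 19 were higher, against 4.36% of all tested genes.

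Of 1885 listed microRNA genes and hosts 31 were tested, with a median of -0.02. By edgeR 1 was called (3.23%, against 0.664% of all tested genes). At an unadjusted p under 0.05, 6 were higher, against 4.36% of all tested genes, and DESeq2 called 3, against 1.73%. The edgeR call was MIR663A. Its annotated stretch of 93 bases had 341, 418 and 438 CPM in IgG of the S34F, FS and WT lines and 67.2, 130 and 120 CPM in Cytosol (2.08 ± 0.31, edgeR adjusted p = 0.000414). The IgG libraries were all above the Cytosol libraries. The mature product of MIR663A is printed because it is the only microRNA locus that edgeR called. It has the seed (bases 2 to 8) in capitals and is from RefSeq (GRCh38.p14, chr20:26208243-26208264, minus strand). The counts cover the locus and do not measure the mature RNA.
hsa-miR-663a: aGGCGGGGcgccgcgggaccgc

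Long cytoskeletal linkers gave 2 calls among 30 members (6.67%, against 0.664% of all tested genes), with a median of 0.31. PLEC, plectin, which ties intermediate filaments to hemidesmosomes, had 6496, 5995 and 6178 CPM in IgG of the S34F, FS and WT lines, against 3279, 3583 and 4789.5 CPM in Cytosol (0.84 ± 0.13, edgeR adjusted p = 0.000740). All IgG libraries exceeded all Cytosol libraries. Its ratio was highest in the S34F line, at 1.11 log2, and lowest in the WT line, at 0.54. The actin crosslinker FLNA (0.20) and the myosin MYH9 (0.17) did not pass the test.

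A further kind of called gene consisted of 31 genes whose levels rose and fell together over the IgG, U2AF1 precipitate and Cytosol libraries. They were chosen after their values were seen, as genes whose centred log2 profile over the 9 libraries differed from that of DONSON by an SD under 0.3, so their agreement is a description. DONSON, a replication fork protein and the gene with the smallest p, had 2565, 3980 and 5992 CPM in IgG of the S34F, FS and WT lines, against 138, 393 and 220 CPM in Cytosol. The IgG levels were far above the Cytosol levels in each line, at a log2 difference of 4.27 ± 0.23 (edgeR adjusted p = 2.78e-10). Fold differences of the 31 ran from 14.2 to 24.1, with a median log2 of 4.25. The excess was not particular to IgG. In the U2AF1 precipitate over Cytosol the median log2 ratio of the 31 was 3.10, against -0.13 over all tested genes. Together they took 1.395%, 2.23% and 3.29% of IgG counts, against 0.0812%, 0.217% and 0.130% of Cytosol counts. The 95% Wilson bounds, for counting error only, lay at most 0.0186 percentage points away.

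The 31 genes lie on 18 chromosomes. Leaving out the FS, the WT or the S34F line kept 30, 29 and 31 of their calls. ACVR2B, an activin receptor, stood at 0.511 to 0.546 times the CPM of DONSON in every 1 of the 9 libraries, and KCNQ5, a potassium channel, at 0.301 to 0.328 times. Levels here are CPM, not scaled by length. Just inside the limit were KCNK10 (SD 0.200), ARMC9 (0.249) and TMEM178B (0.295), and just outside it RD3 (0.376), PTPN3 (0.399) and BACH2 (0.476). Some of the 31 are known from other organs: SRRM4, a neuronal splicing factor, MOBP, a myelin protein, KCNJ10, a glial potassium channel, and MC2R, the adrenal receptor for corticotropin. They do not stand for their tissues. Of 38 markers of neurons and glia 10 were tested, and the 6 outside the 31 had a median of -0.79, with 2 above 0 and 0 called. Nor do they stand for all of the 31. In the polysome gradients described below, DBT had a mean of 69.4 CPM and ARMC9 of 52.0 CPM, against a median of 6.56 CPM for the 31. Over 6 lists of markers of other tissues 10 of 30 tested members were called, and all 10 are among the 31. These lists were chosen with earlier results of these data known, so the overlap is a description and no support. Without them edgeR called 0 of 20 (2 higher at an unadjusted p under 0.05, 1 by DESeq2), with a median of 0.11, and those 20 together had 1024, 551 and 784 CPM in IgG, against 834, 595 and 651 CPM in Cytosol.

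**Figure D3:**
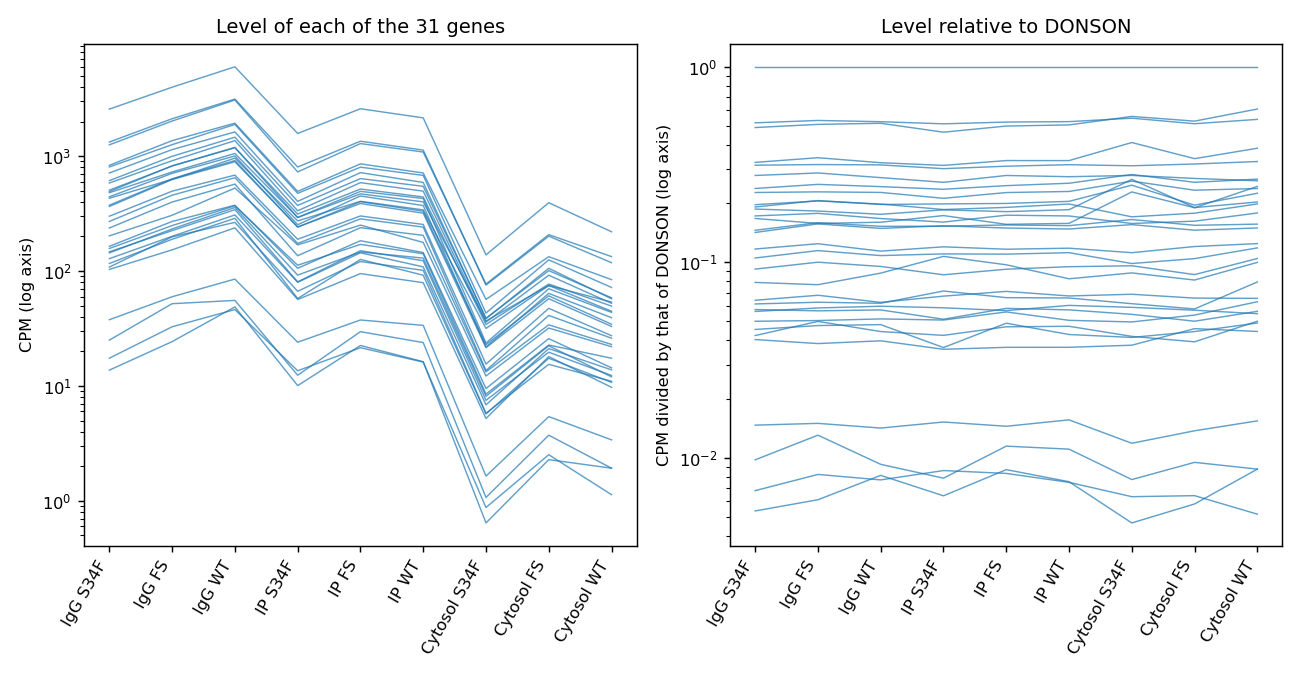
Level of the 31 genes with a shared profile in the 9 libraries (IgG, U2AF1 precipitate (IP) and Cytosol, each in the S34F, FS and WT lines), as CPM (left) and divided by the CPM of DONSON (right), on log axes, 1 line per gene. On the left the lines run parallel and drop in Cytosol. On the right they are nearly flat, for KCNQ5 between 0.301 and 0.328.

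Some called genes outside the 31 had an IgG excess that followed the same order of lines. Each gene's difference, IgG minus Cytosol in CPM, was divided by that of DONSON in the same line. For CASC3, a core protein of the exon junction complex, the quotient was 0.183, 0.175 and 0.171 in the S34F, FS and WT lines, and for DCAKD 0.0713, 0.0750 and 0.0731. PTPN3, a phosphatase, gave 0.203, 0.218 and 0.200, and NEAT1 0.221, 0.191 and 0.210. The quotients of these genes barely differed between lines. The highest quotient was less than 1.5 times the lowest for 12 of the 33 called genes outside the secretory lists and the 31 (36.4%), for 0 of the 22 secretory genes and for 91 of all tested genes, 30 of them among the 31. Only genes higher in IgG before scaling in all 3 lines could meet this limit, and these were 1214 of all tested genes (7.50% of them met it), all 33 genes and 20 of the 22 secretory genes. FN1 gave 0.858, 2.30 and 2.14, and LAMB3 0.0954, 1.01 and 1.20, so their excess was lowest in the S34F line by this measure as well. This description was made after the values were seen and has no test.

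**Figure D4:**
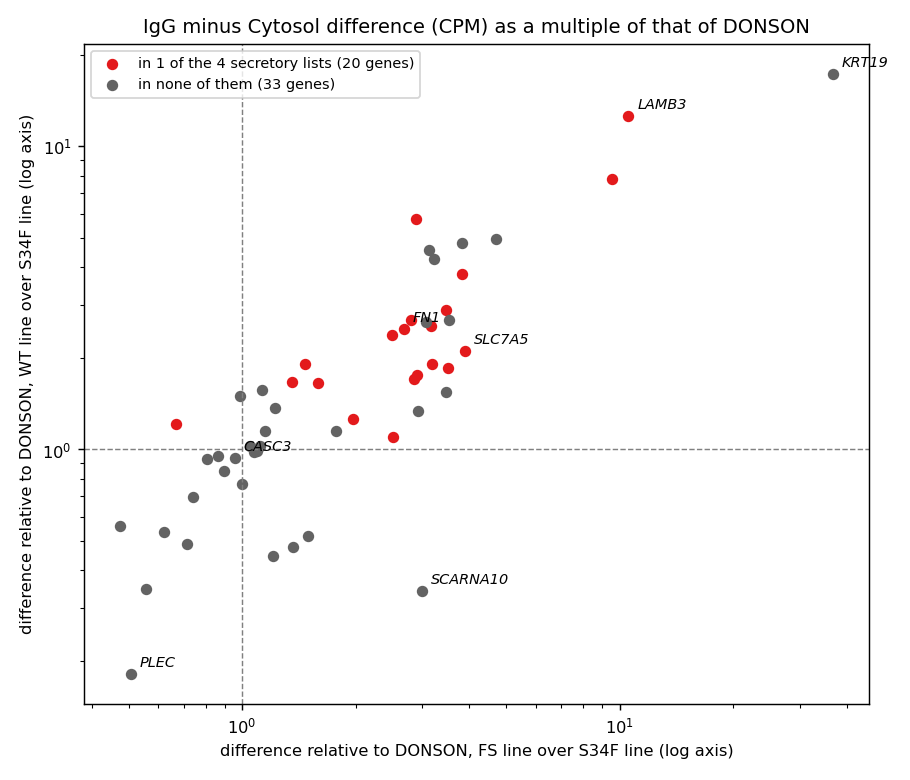
The IgG minus Cytosol difference of each called gene outside the 31, divided by that of DONSON in the same line, as the ratio of the FS line to the S34F line (horizontal) and of the WT line to the S34F line (vertical), on log axes. Genes at 1 on both axes, such as CASC3, follow DONSON. Secretory genes (red) lie mostly above and to the right, PLEC below and to the left. AGRN and ITGB4, lower in S34F IgG before scaling, have no ratio and are not drawn.

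Polysome gradients of the same lines are other libraries. Of the 31 genes, 28 are listed there, and of these 17 had a mean under 10 CPM. Over the 24 gradient libraries the median correlation between pairs of the 28 genes was 0.687, and 0.755 among the 17, against 0.0313 between other tested genes. These values share libraries and depth and are a description. The 17 together held 133, 123 and 112 CPM in monosomes of the S34F, FS and WT lines, and 22.7, 44.1 and 41.7 CPM in the fraction with 8 to 10 ribosomes. In the WT gradient the 2-ribosome and 4-ribosome fractions stood out, at 196 and 158 CPM. The median log2 difference between the 8-10 fraction and monosomes was -1.33 for the 28, with 0 above 0, whereas the 51 other called genes in the table had 0.46, with 33 above 0, and all tested genes 0.29. The ER-translated lists had 0.98 and the cytosolic lists 1.33. Other lists lay near or below the 28, with -2.15 for nuclear noncoding RNAs, -2.18 for small nucleolar and Cajal body RNAs, -1.91 for small nucleolar RNA host genes and -1.21 for ribosomal proteins.

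U2AF1 contacts from PAR-CLIP, which crosslinks a protein to RNA and reads the contact sites, were mapped in Flp-In-293 cells, a derivative of HEK 293. They come from another cell type than the precipitates. A cytoplasmic cluster for either the S34F or the WT protein lay in 9 of the 31 genes (29.0%), in 30 of the 55 other called genes (54.5%) and in 57.4% of all tested genes. The ER-translated lists had 57.1% and the cytosolic lists 86.2%. The share was lower in the 31 genes than in the other called genes, and highest in the cytosolic lists. These sets also differ in level. Their median polysome level was 6.56 CPM for the 31, 234 CPM for the other called genes and 28.6 CPM for all tested genes. It was 107 CPM for the ER-translated and 81.8 CPM for the cytosolic lists. The part of level in these shares was not tested.

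To show which stretches the protein contacts in the RNAs above, the cluster with the most reads among those of at most 30 bases is printed for 8 genes, in the WT cytoplasm. The genes are 2 nuclear RNAs, 3 mRNAs made at the ER, the 2 mRNAs lower in IgG and DONSON. Capitals mark each AG, the letters at the end of an intron that U2AF1 is known to read. AG was searched on the transcript strand only and was held by 85.8% of the 18687 clusters of such length, so its presence sets none of these apart. Positions are as in the deposited list, whose build is not given in the sources used here.
NEAT1, noncoding exon, chr11:65191270-65191297, plus strand, 60 reads: aatggtggAGgaAGAGAGgccttcccgc
MALAT1, noncoding exon, chr11:65270539-65270566, plus strand, 44 reads: aAGtggattgAGgAGgctgtgctgtgtg
SLC7A5, coding, chr16:87866579-87866604, minus strand, 16 reads: tcatgcAGgtggtcccccAGgAGaca
SLC3A2, coding, chr11:62652980-62653006, plus strand, 10 reads: ttctccgactctaccAGctgatgctct
PSAP, coding, chr10:73579485-73579513, minus strand, 12 reads: atgctgcacctctgctctggcacgcggct
CDC42, coding, chr1:22413000-22413029, plus strand, 39 reads: tcAGtggtctctccatcttcatttgaaaac
TALDO1, intron, chr11:763094-763119, plus strand, 10 reads: aatggcatgAGcctgttcctgccttt
DONSON, intron, chr21:34954681-34954707, minus strand, 19 reads: atgtttgtAGgtttgtgaAGaaAGctt
An AG is present in 7 of the 8, and in PSAP it is absent. CDC42, which was low in IgG, held a well-read coding cluster, and NEAT1, which was high, held the best-read one of the 8.

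Longer transcripts had higher ratios in the WT line. From the shortest to the longest of 5 equal groups of tested genes by exonic length, the median log2 ratio was -0.21, -0.19, -0.15, -0.06 and 0.06, and the share called higher was 0.347%, 0.425%, 0.425%, 0.850% and 1.27%. Without the 31 genes these shares were 0.347%, 0.155%, 0.271%, 0.542% and 0.815%, and without the secretory-pathway lists as well the calls were 9, 2, 3, 6 and 11. In the WT line the medians were -0.33, -0.26, -0.17, 0.00 and 0.26. In the FS line they were -0.18, -0.19, -0.21, -0.06 and -0.01, and in the S34F line all 5 lay between -0.05 and -0.02. Without the secretory-pathway lists and the 31 genes, the WT medians were -0.34, -0.28, -0.20, -0.04 and 0.21, so the increase with length in the WT line was also present among other genes. Tested members of the ER-translated lists had a median exonic length of 4678 bases, those of the cytosolic lists 2192 bases and all tested genes 3112 bases. The part of length in the list medians was not tested.

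**Figure D5:**
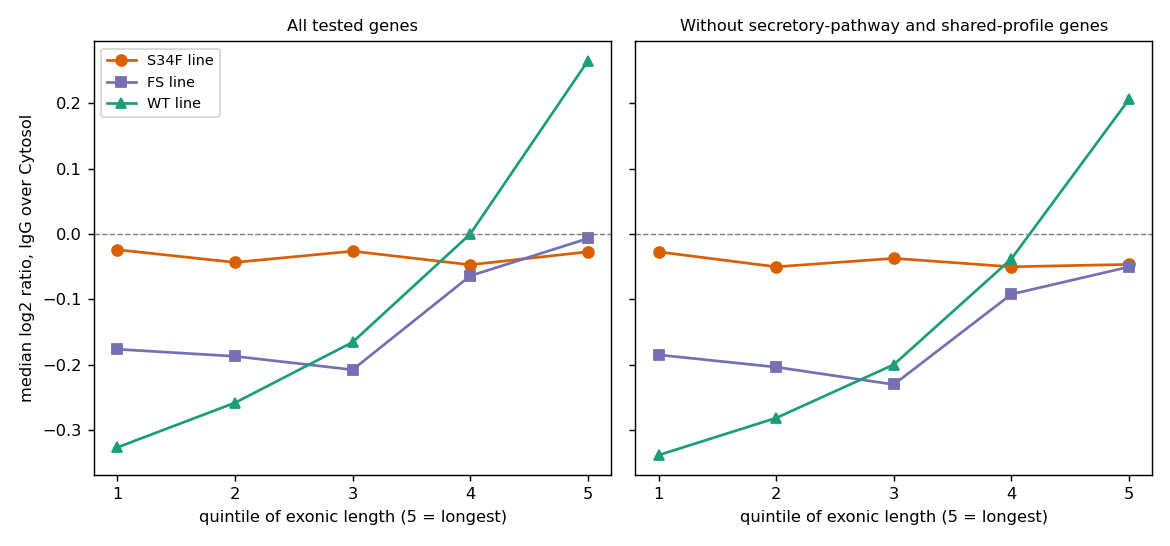
Median log2 ratio of IgG over Cytosol by group of exonic length (1 shortest, 5 longest) in the S34F, FS and WT lines, over all tested genes (left) and without the secretory-pathway lists and the 31 shared-profile genes (right). The WT medians run from -0.33 to 0.26 on the left and the S34F medians stay between -0.05 and -0.02.

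Binned by their mean in the polysome libraries, genes of 50 CPM or more had a median of -0.05 with 46 of 4200 higher and 2 lower, and genes of 10 to 50 CPM had -0.16 with 16 of 5234 higher. Genes of 2 to 10 CPM had -0.48 with 13 of 2314 higher, and all 13 belonged to the 31 genes. The medians did not keep falling below this. Genes of 0.5 to 2 CPM had -0.02 with 4 of 573 higher, all 4 among the 31. Genes above 0 and up to 0.5 CPM had a fitted 3.37 with 0 of 102 higher. Their medians per line were 0.00, -0.09 and 2.55 in the S34F, FS and WT lines. These 102 are the part of 4781 symbols in this bin that reached the count minimum, and at 0.5 to 2 CPM 573 of 3311 did. The minimum was summed over the same 6 libraries that the ratio compares, so the medians of these 2 bins are not read as a trend with level. The 51 other called genes that the polysome table lists lay in the upper 2 bins, at 44 and 7.

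KRT19, a keratin of simple epithelium, had 35.4, 1922 and 1457 CPM in IgG of the S34F, FS and WT lines, whereas each Cytosol library listed it at 0. It is among the 86 called genes, but the size of its difference is not given, because 52 genes were listed at 0 in 1 or more of the 6 libraries and at 50 CPM or more in another. Of these, 42 had a 0 in Cytosol and 21 in IgG. CALR, an abundant ER chaperone, was at 822, 1648 and 1497 CPM in IgG, and at 517, 0 and 686 CPM in Cytosol. KRT17, a basal keratin with near-identical copies, had 19137, 1493 and 991 CPM in IgG and 11.9, 242 and 957 CPM in Cytosol, and did not pass the test (edgeR adjusted p = 0.635). The basal keratin KRT5 showed no such pattern, with 23977, 8344 and 7471 CPM in IgG and 18339, 10375 and 8134 CPM in Cytosol (0.14 ± 0.12). CALR and KRT17 were named after their values were seen. Of the 30 basal markers 6 were called (20%, against 0.664% of all tested genes), among them ITGB4, LAMB3, COL17A1, CDH3 and KRT19. The call of KRT19, which this list includes, rests on the Cytosol values of 0 given above. All but KRT19 are also in the secretory lists.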

How the data were processed

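Counts per gene in 9 RNA immunoprecipitation libraries (IgG, IP and Cytosol in 3 HBEC lines) are expected counts as deposited, since some are not whole, per the file headers. TopHat is the only tool in the submitters' processing notes. The counter, the annotation, any use of strand and the build are not given in the sources used here. The RPKM values deposited by the authors served only to derive the library total they imply. Polysome libraries (24) were also expected counts deposited by the authors. PAR-CLIP lists, deposited with whole-number read counts per cluster, pool replicates, per the series' design text.

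For 119 repeated entries the one with the most counts was kept. Counts were rounded and fitted with edgeR 4.0.16 (limma 3.58.1, R 4.3.3): at least 50 counts over the 6 libraries, TMM scaling, quasi-likelihood test, line as a block, all 9 libraries, contrast IgG minus Cytosol, 4 residual degrees of freedom, adjusted p under 0.05. The fit was also run on simulated counts, with the same dispersion for all genes and no difference between lines. The real counts differ in both, so that run does not check these calls. Ratios per line are log2(TMM-scaled CPM + 0.5). DESeq2 1.42.0 was an alternative. IgG and Cytosol were paired by the cell line that the labels give. The data alone showed this pairing weakly: deviations of IgG and Cytosol from their group means correlated across genes at r = 0.122, 0.0694 and 0.0662 in the S34F, FS and WT lines. Nothing says whether libraries of a kind came from separate cultures beyond the line, and genotype is part of the spread between them.

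Members and gene lists were chosen with earlier results of these data known, so lists are described by counts and medians, without a test. The rule for named genes took the 10 with the largest fold difference and the 10 with the smallest p among those higher, and all lower ones. It also took up to 4 called members of each list or its 2 best-counted, and fixed controls. Other genes were named outside this rule. Among them are TERC, RPPH1, FLNA, MYH9, the further called members of the matrix, adhesion and small RNA lists, and genes set beside DONSON. A planned check of hydrophobic protein segments was not run. Sex-linked transcripts are not reported. Some named genes are not reported here.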

Additional observations from a re-analysis of the deposited data

How the results depend on the processing

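The count of genes higher was 86 in the main fit and 224 by DESeq2 (84 of the 86 among them), 190 without a filter beyond 1 count, 145 with the 6 libraries only and 49 without the 31 shared-profile genes, an alternative chosen after seeing the data. Leaving out 1 line gave 86 to 169. The count of genes lower was 2, against 1 with RLE size factors, 34 by DESeq2, 7 without a filter and 1 without the shared-profile genes, and leaving out 1 line gave 1 to 5. With no replicate block, so without pairing by line, 60 genes were higher and 0 lower (edgeR; 1020 genes had an unadjusted p under 0.05). Library totals alone, filterByExpr, the removal of isolated zeros and the summing of repeated IDs left both counts within 1.5 times. The median over all genes shifted by -0.15 with library totals alone, 0.17 with no block and 0.10 without the S34F line. Among named genes, 60 fits lost a call and 2 gained one. Signs turned only for genes that were not called: PSMA7 (0.0362 and 0.0366), PRPF8 (0.0257 and 0.0263) and U2AF2 (0.0140 and 0.0138) with RLE size factors and with DESeq2, C6orf48 (-0.0186), CDKN1A (-0.125), ACTA1 (-0.0730) and KRT5 (-0.0066) with library totals, CAPS with no block (1.11) and with 6 libraries (0.222), and VIM (0.0127) with no block. Without the FS line PSMA7 (0.187), SNHG16 (0.0630), C6orf48 (-0.0297), U2AF2 (0.242), CAPS (1.31), VIM (0.118) and ZNF598 (0.0702) turned. Without the S34F line RPLP0 (0.0375), PSMA7 (0.0262), HIST1H4K (0.0873) and HIST1H4J (0.0876), which are near-identical genes, turned. Without the WT line RPLP0 (0.0024), HSPB1 (-0.0969), PRPF8 (0.268), DDIT4 (0.0369), ACTA1 (-0.373) and ZNF219 (0.0130) turned. The causes were not tested. Among the 6 libraries compared, depth limits IgG most, where 3 counts are up to 1.01 CPM. The planned check of hydrophobic segments was not run.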
